A study of Saccharomyces cerevisiae with 4 samples.

Results

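The histone genes of budding yeast were compared between 2 cultures of an H3 K4,36,79R strain and 2 cultures of a wild-type strain at 0 h, before any move to glucose. The set held 10 genes of the 5923 that the platform annotation names: the H3 genes HHT1 and HHT2, the H4 genes HHF1 and HHF2, the H2A genes HTA1 and HTA2, the H2B genes HTB1 and HTB2, HTZ1 for the variant H2A.Z, and HHO1 for the linker histone. They were chosen by name, as every probe set (the group of oligonucleotides that gives 1 value per array) whose annotation lists at least one of them. This gave 10 probe sets. Only HTB1, HTB2, HTZ1 and HHO1 had a probe set of their own, 1 each. The other 6 genes were read on 6 probe sets that each list both copies, 3 for H3, 1 for H4 and 2 for H2A, so that the copies cannot be separated there.

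Per the labels, the mutant strain carries histone H3 with arginine at lysines 4, 36 and 79, and the comparison strain is called wild type for it. Both were grown in galactose under selection and collected in mid-log phase, at an OD600 of 0.5 to 0.7. In this system the wild-type H3 gene is expressed in galactose and repressed by glucose. At 0 h the mutant cultures therefore had not yet been left with mutant H3 as their only H3, which limits them as a model of the mutant histone. The labels give no further genotype for either strain, and do not say whether the chromosomal H3-H4 loci are intact in them. The values are MAS5 signals from an Affymetrix array, which measure total RNA from 1 culture each.

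Yeast core histone genes lie as divergent pairs, H2A beside H2B and H3 beside H4, with the genes of a pair sharing the promoter between them. Their transcription is confined mainly to S phase, when new chromatin is assembled. The HIR complex represses most of these pairs outside S phase, and Spt10 and Spt21 activate them. HTZ1 and HHO1 stand alone: H2A.Z replaces H2A next to many promoters, placed by the SWR1 complex, and Hho1 is the yeast relative of histone H1. In wild-type H3, Set1 methylates lysine 4, Set2 lysine 36 and Dot1 lysine 79, and none of these enzymes acts on arginine. In the RefSeq gene order HTA2-HTB2 and HHT1-HHF1 lie on chromosome II, HTA1-HTB1 on chromosome IV, HHT2-HHF2 on chromosome XIV, HTZ1 on chromosome XV and HHO1 on chromosome XVI.

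Signals are given first as deposited, on a linear scale, and then as log2(signal + 2) minus the array's median over the 4576 genes tested, called the centred level below. The values show an extra factor per array on the mutant columns (0.839 and 0.960), which the centring takes out apart from the added 2, so the deposited signals alone make the mutant look lower. Differences are mutant minus wild type. Of 10 histone probe sets, 9 passed a filter on mean signal and were tested, 4 single-gene and 5 shared. In limma 0 of the 4 single-gene probe sets passed an adjusted p of 0.05, where 0.0437% of 4576 genes did, and 0 of the 5 shared ones, where 0.0471% of 2123 shared, unnamed and control probe sets did. At an unadjusted p under 0.05 the count was also 0 of 9, where 8.52% of the genes and 7.30% of the other probe sets had one. Among all 4576 genes 2 were higher and 0 lower past the threshold. That split was 6 higher and 5 lower without centring, 5 and 4 with quantile normalisation and 3 and 3 with cyclic loess.

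**Figure D1:**
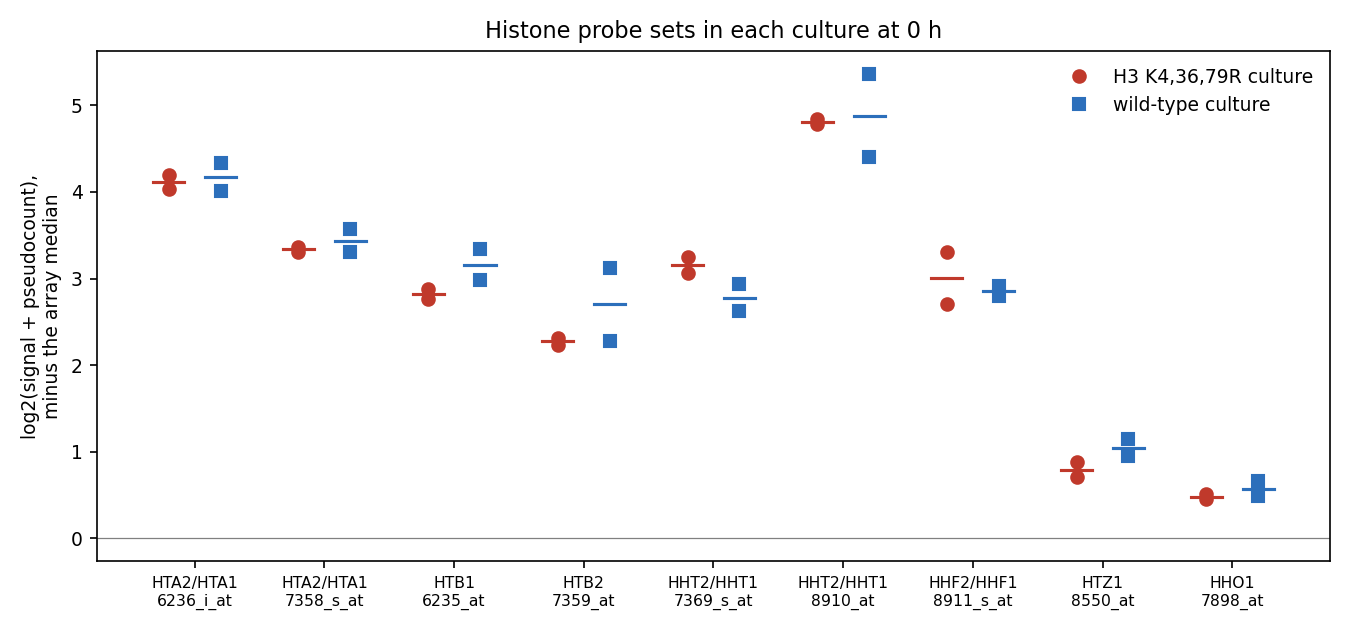
Centred log2 level (vertical axis, log2(signal + pseudocount) minus the array median) of the 9 tested histone probe sets in each culture, with H3 K4,36,79R cultures as circles left of wild-type cultures as squares and short lines at group means (n = 2 each). Levels can be compared within a probe set only; the wild-type squares lie widest apart for HTB2 and for probe set 8910_at of H3.

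The H2B genes showed the largest negative differences of the set, without passing the test. HTB1 (YDR224C) had deposited signals of 613 and 729 in the mutant cultures, against 825 and 1013 in the wild-type cultures. Its centred level was 2.82 ± 0.08 in the mutant and 3.16 ± 0.26 in the wild type (SD, n = 2 each). Both mutant cultures lay below both wild-type cultures, as they did for 18.5% of all genes tested. The difference of HTB1 was -0.34 (SE 0.21, 0.788-fold, 95% interval -0.83 to 0.14, limma adjusted p = 0.698). When wild-type replicate 1 was left out it was -0.53, and when wild-type replicate 2 was left out -0.16.

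HTB2 (YBL002W) had signals of 425 and 493 in the mutant cultures and of 507 and 868 in the wild-type cultures. The centred level was 2.27 ± 0.06 in the mutant and 2.70 ± 0.60 in the wild type (SD, n = 2 each), and the groups overlapped, since wild-type replicate 1 lay between the mutant cultures. The difference was -0.43 (SE 0.27, 0.744-fold, 95% interval -1.06 to 0.21, limma adjusted p = 0.719). It rested on wild-type replicate 2: without that culture it was -0.0055, and without wild-type replicate 1 it was -0.85. The wild-type replicates of HTB2 differed by 0.85, and only 4.57% of genes had wild-type replicates at least as far apart. The mutant replicates of HTB2 differed by 0.08.

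The H2A genes were read on probe sets 6236_i_at and 7358_s_at, both listing HTA1 (YDR225W) and HTA2 (YBL003C). Probe set 6236_i_at had signals of 1488 and 1820 in the mutant cultures, against 1694 and 2009 in the wild-type cultures. Probe set 7358_s_at had 900.0 and 1027 in the mutant cultures, against 1038 and 1182 in the wild-type cultures. On the centred scale the groups overlapped on both probe sets, with the mutant cultures between the wild-type ones. The differences were -0.06 (SE 0.24, 95% interval -0.62 to 0.50, limma adjusted p = 0.961) on 6236_i_at and -0.10 (SE 0.25, 95% interval -0.68 to 0.49, limma adjusted p = 0.932) on 7358_s_at. Neither has a settled sign: 6236_i_at was at 0.02 with cyclic loess and 7358_s_at at 0.02 with quantile normalisation. Without wild-type replicate 2 they were at 0.10 and 0.03. The differences lay nearer 0 than those of both H2B genes, which share these promoters, but H2A was not tested against H2B. Without wild-type replicate 2 this did not hold for HTB2, which was then at -0.0055.

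**Figure D2:**
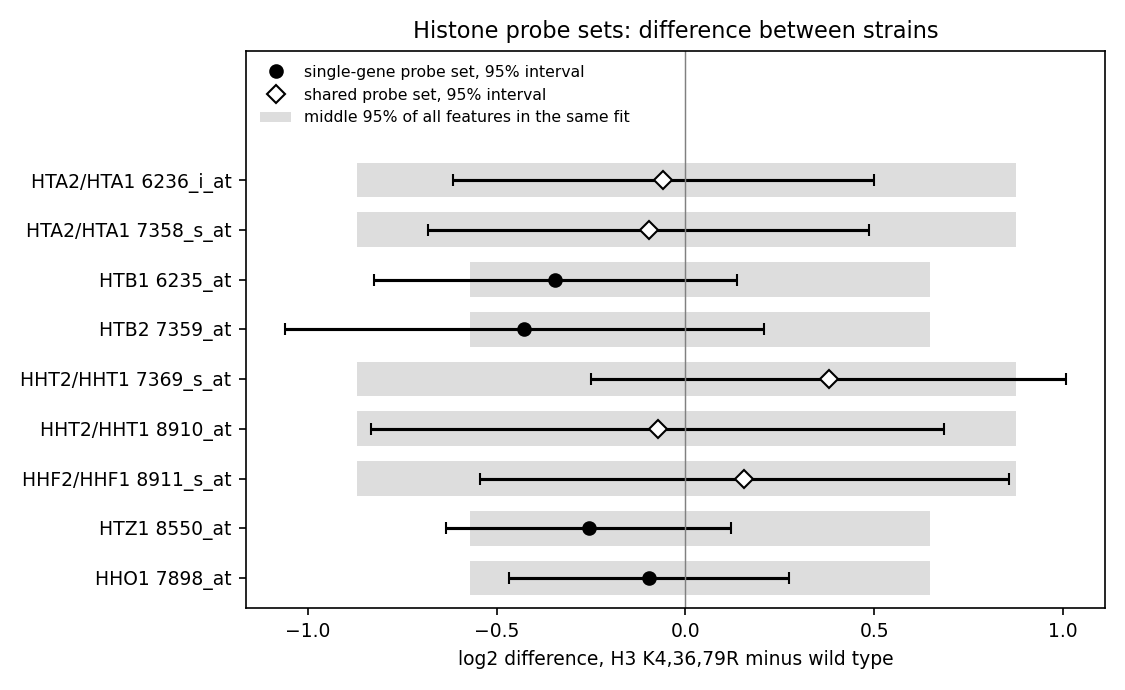
Log2 difference (horizontal axis, H3 K4,36,79R minus wild type) of each tested histone probe set with its 95% interval from limma; filled circles are single-gene and open diamonds shared probe sets, and the grey bars span the middle 95% of all features of the same fit. All 9 intervals include 0, and those of HTB2 and of probe set 7369_s_at of H3 reach past a 2-fold difference.

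The H3 genes, HHT1 (YBR010W) and HHT2 (YNL031C), encode the histone that is mutated in this study, and their 3 probe sets list both copies. The labels do not say from which locus mutant or wild-type H3 is made. The annotation does not tie any of the 3 to a mutant or a wild-type H3 mRNA, so they do not check the genotype. In galactose they may also read mRNA of the wild-type H3 gene expressed there, and its part in the H3 values was not tested. Probe set 7369_s_at had signals of 759 and 947 in the mutant cultures, against 801 and 614 in the wild-type cultures. Its centred level was 3.16 ± 0.13 in the mutant and 2.78 ± 0.22 in the wild type (SD, n = 2 each), with both mutant cultures above both wild-type cultures, as on 25.2% of the shared, unnamed and control probe sets. The difference was 0.38 (SE 0.27, 1.30-fold, 95% interval -0.25 to 1.01, limma adjusted p = 0.771), and it lay from 0.22 to 0.54 with 1 culture left out.

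Probe set 8910_at had signals of 2595 and 2739 in the mutant cultures, and of 2219 and 4109 in the wild-type cultures. The mutant cultures lay between the wild-type ones on the centred scale, at 4.81 ± 0.04 in the mutant and 4.88 ± 0.68 in the wild type (SD, n = 2 each). The difference was -0.07 (SE 0.32, 95% interval -0.83 to 0.69, limma adjusted p = 0.964), but it was 0.41 when wild-type replicate 2 was left out and -0.55 when wild-type replicate 1 was. The 2 bright H3 probe sets thus did not rank the wild-type cultures alike: replicate 2 minus replicate 1 was 0.96 on 8910_at and -0.31 on 7369_s_at. For 8910_at, 11.0% of the probe sets in its fit had wild-type replicates at least as far apart. That fit includes probe sets near background, and the median distance between its wild-type replicates was 0.39, against 0.28 over all genes tested. The share of 11.0% therefore does not compare 8910_at with probe sets of similar signal. In the gene fit only 4.57% of genes reached the smaller distance of HTB2, 0.85. The suffix _s in the array's naming marks a probe set shared by similar transcripts. Although 8910_at carries no such suffix, its annotation lists both H3 genes.

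The remaining H3 probe set, 7368_i_at, was near background and was left out by the filter. Its signals were 2.43 and 1.73 in the mutant cultures, against 3.60 and 2.10 in the wild-type cultures, all near the added 2. H4 was read on probe set 8911_s_at, which lists HHF1 (YBR009C) and HHF2 (YNL030W). It had signals of 897 and 649 in the mutant cultures, against 788 and 690 in the wild-type cultures. Here the mutant replicates were the ones apart, by -0.60, and the wild-type cultures lay between them. The H4 difference was 0.16 (SE 0.30, 95% interval -0.55 to 0.86, limma adjusted p = 0.901), with -0.14 without mutant replicate 1 and 0.45 without mutant replicate 2.

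HTZ1 (YOL012C), which encodes H2A.Z, had signals of 146 and 181 in the mutant cultures, against 200.3 and 219 in the wild-type cultures. Its centred level was 0.79 ± 0.12 in the mutant and 1.05 ± 0.14 in the wild type (SD, n = 2 each). Both mutant cultures lay below both wild-type cultures, as they did for 18.5% of all genes tested. The difference was -0.26 (SE 0.16, 0.837-fold, 95% interval -0.63 to 0.12, limma adjusted p = 0.719), and it lay from -0.36 to -0.16 with 1 culture left out. HHO1 (YPL127C), the linker histone gene, had signals of 122 and 140 in the mutant cultures, against 145 and 156 in the wild-type cultures. Its groups overlapped, and its difference was -0.10 (SE 0.16, 95% interval -0.47 to 0.27, limma adjusted p = 0.911), with -0.012 without wild-type replicate 2.

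Over the 9 tested histone probe sets the median difference was -0.10, against -0.0087 over all 4576 genes and 0.06 over the 2123 other probe sets. It turned to 0.03 when wild-type replicate 2 was left out, and was -0.23 when wild-type replicate 1 was; it was -0.01 with quantile normalisation, -0.04 with cyclic loess and -0.20 without centring. All 4 single-gene probe sets lay below 0, as did 51.6% of all genes, and 3 of the 5 shared ones, as did 44.1% of their fit. The second count rested on wild-type replicate 2, since all 5 shared probe sets lay above 0 when it was left out. It was 2 of 5 with quantile normalisation and 1 of 5 with cyclic loess. In 7 of 9 the 95% interval, taken for each probe set without adjustment, excluded a 2-fold difference in either direction. Differences within these intervals are not excluded with 2 arrays per group. The intervals do not give the size of difference that would have passed the adjusted threshold. The wild-type replicates lay farther apart than the mutant replicates on 8 of 9 histone probe sets, H4 being the exception. The same held for 67.4% of all genes tested and for 63.4% of the shared, unnamed and control probe sets. In total RNA a change in the share of cells in S phase and a change in histone mRNA per cell cannot be told apart. For H3, the wild-type gene expressed in galactose may add to the signal, and its part was not tested.

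**Figure D3:**
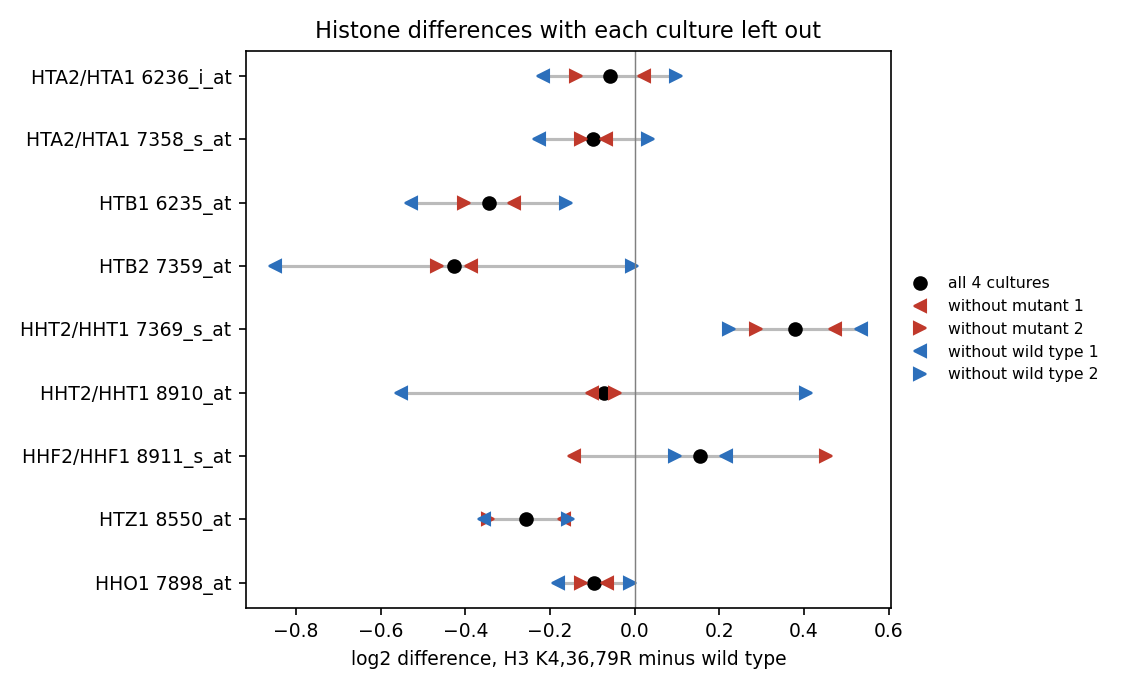
Log2 difference (horizontal axis, H3 K4,36,79R minus wild type) of each tested histone probe set with all 4 cultures and with each culture left out. The widest spreads are those of 8910_at (H3), from -0.55 to 0.41, and of HTB2, from -0.85 to -0.0055, in both cases set by which wild-type culture is left out.

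The protein-coding genes next to the 6 histone loci were read as well. Of 12 neighbours, 10 were tested and 0 passed the threshold in limma, 1 at an unadjusted p under 0.05, where 8.52% of all genes had one. That gene was SIW14 (YNL032W), which encodes an inositol pyrophosphate phosphatase and lies next to HHT2. Its signals were 311 and 274 in the mutant cultures, against 131 and 142 in the wild-type cultures. SIW14 differed by 1.19 (SE 0.17, 95% interval 0.79 to 1.59, limma adjusted p = 0.0787), and by 1.03 to 1.35 with 1 culture left out. It passed without centring (adjusted p = 0.0476), without mutant replicate 2 (adjusted p = 0.000854) and with the replicate number as a block (adjusted p = 0.00649). It did not pass in the 9 other alternative settings, with adjusted p up to 0.199 in the joint fit, nor without any other culture, with adjusted p up to 0.248 when wild-type replicate 2 was left out. The gene on the other side of HHT2-HHF2, the mannosyltransferase homologue gene KTR5, had 153 and 151 in the mutant cultures, against 149.5 and 129 in the wild-type cultures, and differed by 0.23 (SE 0.16, limma adjusted p = 0.730).

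At the other H3-H4 locus the neighbour of HHF1 is FLR1 (YBR008C), a plasma membrane multidrug transporter gene. FLR1 lay below the filter, with signals of 26.3 and 37.5 in the mutant cultures, against 17.1 and 11.9 in the wild-type cultures, so that the groups did not overlap. Both mutant cultures lay above both wild-type cultures for 21.0% of all genes tested. Without the filter its difference was 1.13 (limma adjusted p = 0.245). IPP1, the inorganic pyrophosphatase gene on the HHT1 side, differed by -0.13 (SE 0.26, limma adjusted p = 0.934). The labels do not say whether either H3-H4 locus was altered in one of the strains, and the part of strain construction in the SIW14 and FLR1 values was not tested. Beside the H2A-H2B pairs, the adenylate kinase gene ADK1 differed by 0.07, ECM15 by 0.06 and UTP20 by 0.24, and CRF1 lay below the filter at signals from 6.70 to 7.80. UTP20 was at -0.24 without wild-type replicate 2, and ADK1, ECM15 and IPP1 took either sign with 1 culture left out. Without centring ADK1, ECM15 and NAN1 lay below 0. Beside HTZ1, PLB3 differed by 0.22 and HRD1 by -0.09, and beside HHO1, NAN1 differed by 0.10 and TBF1 by 0.48. NAN1 and TBF1 were at -0.17 and -0.14 without wild-type replicate 2.

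**Figure D4:**
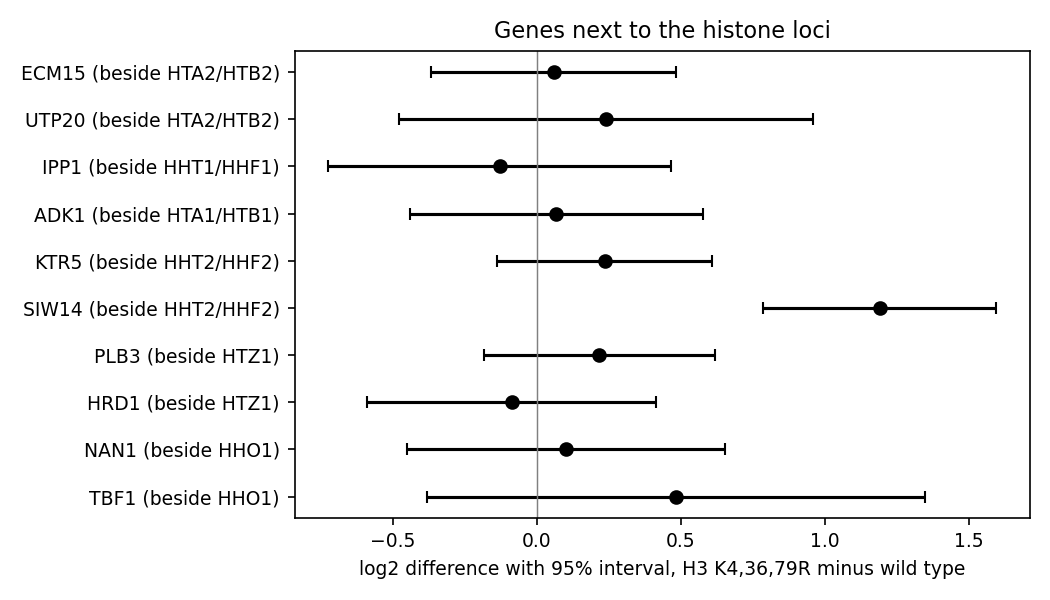
Log2 difference with its 95% interval from limma (horizontal axis, H3 K4,36,79R minus wild type) for the 10 tested protein-coding genes next to the histone loci. SIW14, beside HHT2-HHF2, lies at 1.19 with an interval from 0.79 to 1.59, and the other 9 intervals include 0.

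Genes that control histone supply did not pass the test. Of 19 regulators of histone genes and histone mRNA, 16 were tested, 0 passed in either direction in limma, 1 had an unadjusted p under 0.05, where 8.52% of all genes had one, and 8 lay on each side of 0 (median -0.0045). With 1 culture left out the median lay from -0.11 to 0.06. The lowest was ASF1, an H3-H4 chaperone that works with the HIR complex, at -0.78 (SE 0.26, limma adjusted p = 0.488), followed by RTT106, another H3-H4 chaperone, at -0.37. ASF1 had signals of 66.4 and 89.0 in the mutant cultures, against 113 and 183 in the wild-type cultures, and its difference was -1.16 to -0.41 with 1 culture left out. The highest were SWI4, the DNA-binding subunit of the G1/S factor SBF, at 0.42, and SPT21, the partner of Spt10, at 0.31. SWI4 turned to -0.16 when wild-type replicate 2 was left out, and SPT21 lay from 0.18 to 0.45 with 1 culture left out. HIR1, HIR2, HIR3 and HPC2 of the HIR complex were at -0.13, 0.04, 0.31 and -0.19, of which HIR3 alone kept its sign without each culture in turn, and SPT10 lay below the filter.

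For H2A.Z deposition 12 of 14 genes were tested and 0 passed in limma, also at an unadjusted p under 0.05. Of these, 6 lay above and 6 below 0 (median -0.03). The median was -0.06 to -0.01 with 1 culture left out, and -0.19 over the 7 genes tested with the lowest 50% left out. The lowest were the histone chaperone gene NAP1 (-0.41) and CHZ1, an H2A.Z-H2B chaperone gene (-0.34), and the highest SWC5 of the SWR1 complex (0.28) and BDF1 (0.18). NAP1 was at -0.05 and BDF1 at 0.03 when wild-type replicate 2 was left out, and CHZ1 at -0.03 without mutant replicate 2. SWR1 itself, its ATPase, was at -0.06, and at 0.04 when wild-type replicate 1 was left out. Of 8 genes for histone import and the centromeric H3, 7 were tested and 0 passed in limma, also at an unadjusted p under 0.05, with 3 above and 4 below 0 (median -0.15). This list shares NAP1 with the one before. The importin gene KAP123 was at -0.30, CSE4, the centromeric H3 itself, at -0.25, PSH1, which encodes the ubiquitin ligase for Cse4, at 0.26, and the importin gene PSE1 at 0.16. CSE4 turned to 0.03 when wild-type replicate 2 was left out, and KAP123 was at -0.09 and PSE1 at 0.05 without mutant replicate 1. The median of this list was -0.32 to 0.02 with 1 culture left out, the lowest without wild-type replicate 1 and the highest without wild-type replicate 2.

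Cell-cycle genes were read beside the histones because histone mRNA follows S phase. Of 17 tested S-phase genes, 0 passed in limma, also at an unadjusted p under 0.05, and 12 lay below 0, as did 51.6% of all genes (median -0.09). They ranged from POL30, the replication clamp PCNA (-0.31), and POL12 (-0.30) to SMC3 (0.14) and POL2, the catalytic subunit of DNA polymerase epsilon (0.33). POL30 was at -0.11 without mutant replicate 2 and POL2 at 0.15 without mutant replicate 1, while POL12 was at -0.09 and SMC3 at -0.07 when wild-type replicate 2 was left out. When wild-type replicate 1 was left out the median was -0.15, and when wild-type replicate 2 was left out it was -0.00043. Of 9 tested genes of G2 and M phase, 0 passed in limma, 1 had an unadjusted p under 0.05, where 8.52% of all genes had one, and 8 lay above 0, as did 48.4% of all genes (median 0.31). IQG1, a gene of cytokinesis, was at 0.60 and CDC20, an activator of the anaphase-promoting complex, at 0.50 (SE 0.18, limma adjusted p = 0.538). The lowest were the mitotic cyclin gene CLB1 (-0.44) and the Polo kinase gene CDC5 (0.19). IQG1 rested on wild-type replicate 2 and was at 0.0090 when it was left out, whereas CDC20 lay from 0.44 to 0.56 with 1 culture left out. CLB1 was at -0.19 without mutant replicate 1, and CDC5 turned to -0.03 when wild-type replicate 1 was left out. The median of this list was 0.12 without wild-type replicate 2 and from 0.42 to 0.47 without any other culture. The part of cell-cycle stage in the histone values was not tested.

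**Figure D5:**
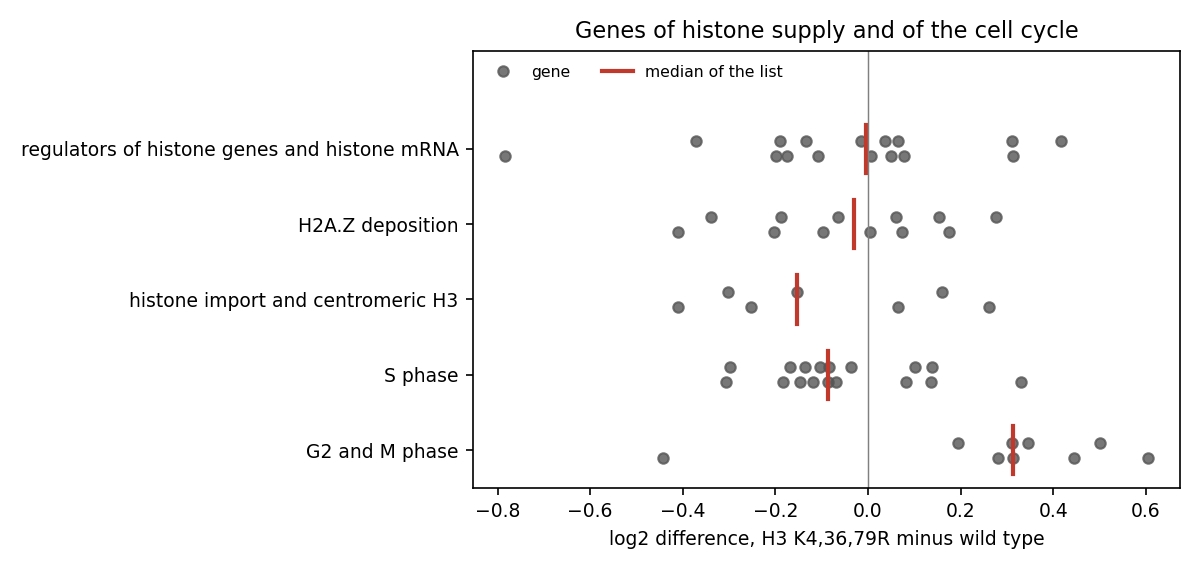
Log2 difference (horizontal axis, H3 K4,36,79R minus wild type) of each tested gene in 5 lists, 1 grey point per gene, with the list's median as a red bar. The medians are -0.0045 for regulators, -0.03 for H2A.Z deposition, -0.15 for histone import, -0.09 for S phase and 0.31 for G2 and M phase.

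The mean of the 7 tested core histone probe sets, those of H3 included, differed more between the wild-type cultures than between the strains. Relative to its own mean it stood at -0.03 and -0.04 in the mutant cultures, against -0.13 and 0.20 in the wild-type cultures. By root-mean-square distance over the 4 arrays, the 3 genes nearest to this profile were AIM44, CUE4 and ECM13, at 0.012, 0.012 and 0.014, where the median over 4572 genes was 0.19. With 4 arrays this is a description of these cultures only. For the galactose medium of the labels, the galactokinase gene GAL1 had signals of 1058 and 1263 in the mutant cultures, against 1454 and 1424 in the wild-type cultures, and a centred difference of -0.21 (limma adjusted p = 0.829). GAL1 had the difference nearest 0 of the 3 genes listed for growth in galactose. All 3 lay below 0, as did 51.6% of all genes, with a median of -0.33 (-0.44 to -0.19 with 1 culture left out). On all 3 both mutant cultures lay below both wild-type cultures, as for 18.5% of all genes, and 0 passed in limma. The mating-type a gene MFA1 was read at 354 and 344 in the mutant cultures, against 420.3 and 400 in the wild-type cultures, with a centred difference of -0.13 (limma adjusted p = 0.868). With the mean of all its probe sets MFA1 was at -0.37. The 3 a-specific genes listed all lay below 0, as did 51.6% of all genes, and 0 passed in limma (median -0.13, and -0.21 to -0.05 with 1 culture left out). Of these, STE2 was at -0.012, and turned to 0.03 without mutant replicate 1 and to 0.22 without wild-type replicate 1. MFA2 was at -0.32 and turned to 0.05 without wild-type replicate 2. All 3 alpha-specific genes lay below the filter. The labels do not give the mating type.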

How the data were processed

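Biotin-labelled cRNA was made from roughly 20 ug of total RNA, per the labels' protocols. The deposited values are intensities, 1 per probe set, computed with MAS5 per the submitters' processing notes. Its version and scaling are not given in the sources used. The 9335 probe sets were named from the platform annotation, and the 5656 genes with a probe set of their own all matched RefSeq R64 by gene ID. No sequence or coordinate is printed. Of the 6504 single-gene probe sets the lowest 25% by mean signal were left out, and the brightest of the remaining 4878 was used for each gene, which left 4576 genes with a mean of at least 25.0. A separate fit with the centring of the gene fit held the probe sets that are shared, unnamed or controls. Their own lowest 25% were left out, which left 2123 with a mean of at least 2.63. The shares given for that fit therefore include probe sets near background. The pseudocount of 2 is the rounded 10th percentile of all signals; differences on this scale understate changes near background. limma 3.58.1 in R 4.3.3 was used (lmFit, eBayes with an intensity trend, 2 residual degrees of freedom, two-sided, Benjamini-Hochberg over each whole fit, threshold 0.05), and it was tested on simulated data. Python 3.11.15 and matplotlib 3.10.9 drew the figures.

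All histone probe sets are named. The other genes came from fixed lists, with the 2 highest and 2 lowest of each, from the nearest protein-coding neighbours of each locus, and from the 3 profiles most like the core histones. The HIR genes, SPT10, SWR1, CSE4 and the markers GAL1 and MFA1 were named in addition, after their values had been seen. The members and lists were chosen with earlier results of these data known. One gene of the lists is not reported here. Replicates are separate cultures per the design text. Alternatives covered scaling, pseudocount, filter, probe set choice, variance model, a joint fit, a replicate block and each culture left out.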

Additional observations from a re-analysis of the deposited data

How the results depend on the processing

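The 0 histone calls, single-gene and shared, held in all 11 alternative settings and in the 4 fits without 1 culture. Signs turned for 6236_i_at (0.0167 with cyclic loess, -0.216 to 0.0987 without 1 culture), 7358_s_at (0.0244 with quantile normalisation, -0.226 to 0.0305 without 1 culture), 8910_at (0.0196 with cyclic loess, -0.552 to 0.405 without 1 culture) and 8911_s_at (-0.142 to 0.453 without 1 culture); the cause was not tested. Among all genes of the single-gene fit, 2 passed, against 11 without centring, 9 with quantile normalisation, 6 with cyclic loess, 7 with the lowest 50% left out, 9 with the mean of probe sets, 1 without an intensity trend, 1 in the joint fit of all probe sets, and 1 to 21 without 1 culture. Without 1 culture the other fit had 1 to 9, against 1. Fits without a culture or with the block have 1 residual degree of freedom. Without centring, all genes shifted by a median of -0.11. With the replicate block 32 genes passed (20 higher, 12 lower), against 2 (2 higher, 0 lower), but 0 histone probe sets, and SIW14 had an adjusted p of 0.00649. The sample titles give replicate numbers only and do not say whether same-numbered cultures were handled together. The deviations of same-numbered cultures correlated at 0.04 across genes, which are not independent. Whether same-numbered cultures share a batch was not tested. Over its 11 alternative settings SIW14 had adjusted p-values from 0.00649 to 0.199. The number of arrays limits the precision throughout.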
